A study of Mus musculus with 14 samples.

Results

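Neutrophils and monocytes are made from myeloid progenitors and express genes that T cells hardly use. The 38 genes described here, of the 24091 genes counted, were taken by symbol from a list of neutrophil and monocyte genes and divided by the stage at which they are known to be used: 5 primary granule genes, 8 secondary granule genes (counting Mmp9, whose protease is stored in later granules), 11 late neutrophil genes, 6 monocyte and macrophage genes, and 8 genes that several myeloid cells share. All 38 symbols were in the counts. They were followed in bulk RNA-seq of sorted T cells, so the RNA measured is that of everything that passed the sort.

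T cells were sorted from the spleens of 8 Mir142+/+BCR-ABL mice, the model of chronic phase CML (CP CML), and of 6 Mir142-/-BCR-ABL mice, the model of blast crisis (BC CML). Each library was made from 200000 cells of 1 mouse, and the comparison asks how T cells of BC CML mice differ from those of CP CML mice. All 14 mice were C57Bl/6j (CD45.2), male and female, 6 to 10 weeks old, and had BCR-ABL expressed for 3 weeks after tetracycline withdrawal from the SCLtTA driver, which acts in blood stem and progenitor cells. Both groups therefore carried leukemia, and no mouse without BCR-ABL was compared here. Mir142 was deleted in the whole animal and not in T cells alone. The sample names give the mice of the 2 groups different prefixes, and what these prefixes mark is not stated; whatever it is cannot be told apart from genotype. The sample name of BC CML 5 ends in the letters RP, which the labels do not explain.

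Neutrophils mature in order. Promyelocytes make the enzymes of the primary (azurophil) granules, such as myeloperoxidase and elastase. Myelocytes turn to the proteins of the secondary granules, such as lactoferrin. The last stages add gelatinase-type proteases and receptors such as Cxcr2 that let the cell leave the marrow and reach inflamed tissue. CEBPA, CEBPE and PU.1 (Spi1) are transcription factors of this program, and PU.1 with the CSF1 receptor also serves monocytes and macrophages. In CML the leukemic clone makes large numbers of such cells, which collect in the spleen.

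The deleted gene gives 2 mature microRNAs, shown because they are what the BC CML mice lack. They are from RefSeq (GRCm38.p6, the build of the counts), lie on the plus strand of chromosome 11, at chr11:87756867-87756887 and chr11:87756903-87756925, and have the seed, bases 2 to 8, in capitals.
miR-142a-5p: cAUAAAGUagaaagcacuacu
miR-142a-3p: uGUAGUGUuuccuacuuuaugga

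The microRNA acts by pairing of the seed with 3′UTRs, and matches to its seeds were counted among the members. The lengths of the 3′UTRs were not taken into account. All 38 had a 3′UTR in GENCODE M21. The 8-base match to miR-142a-5p was in 1 of the 38 (2.63%), against 600 of the 11503 tested genes with a 3′UTR (5.22%), and the 8-base match to miR-142a-3p was in 0 of 38, against 350 (3.04%). Matches of 7 bases or more were in 2 of 38 for miR-142a-5p (Csf1r and Ccr1; 5.26%, against 15.9% of the tested genes) and in 0 of 38 for miR-142a-3p (against 6.96%). The 1 long match was in Ccr1, a chemokine receptor, at bases 1164 to 1171 of a 3′UTR of 1300 bases, in capitals here.
Ccr1: caaagctgatACTTTATAaagaataaag

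The promoters of 4 members are printed as examples of those that differed most or were most abundant in their stages: Elane, which encodes neutrophil elastase, Ngp, which encodes neutrophilic granule protein, Mmp8, which encodes neutrophil collagenase, and Retnlg, a resistin-like gene of late neutrophils. Each run is read on the gene's strand, 250 bases before and 50 after the start, from RefSeq (GRCm38.p6), all on the plus strand. Capitals mark 2 motifs searched on both strands, TTGCNNAA, a core of the sites that C/EBP factors bind, and GAGGAA, a core of PU.1 sites (TTCCTC on the other strand). They lie at chr10:79886062-79886361 (Elane), chr9:110419558-110419857 (Ngp), chr9:7558179-7558478 (Mmp8) and chr16:48872358-48872657 (Retnlg).
Elane: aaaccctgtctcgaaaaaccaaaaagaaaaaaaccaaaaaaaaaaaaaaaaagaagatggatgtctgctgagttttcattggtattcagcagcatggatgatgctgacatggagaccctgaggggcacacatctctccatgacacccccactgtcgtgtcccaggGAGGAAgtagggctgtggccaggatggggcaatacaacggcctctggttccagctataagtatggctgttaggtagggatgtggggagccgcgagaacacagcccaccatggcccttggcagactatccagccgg
Ngp: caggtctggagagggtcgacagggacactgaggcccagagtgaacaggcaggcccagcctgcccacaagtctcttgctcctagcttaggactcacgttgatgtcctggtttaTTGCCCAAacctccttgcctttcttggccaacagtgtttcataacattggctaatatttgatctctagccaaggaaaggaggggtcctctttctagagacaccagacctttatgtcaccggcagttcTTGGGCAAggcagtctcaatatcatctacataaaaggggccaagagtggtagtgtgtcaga
Mmp8: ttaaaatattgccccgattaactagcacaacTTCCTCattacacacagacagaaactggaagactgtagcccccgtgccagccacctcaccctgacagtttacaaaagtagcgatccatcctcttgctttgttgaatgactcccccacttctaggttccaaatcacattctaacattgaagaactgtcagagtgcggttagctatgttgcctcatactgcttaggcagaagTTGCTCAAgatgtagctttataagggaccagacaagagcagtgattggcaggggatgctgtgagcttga
Retnlg: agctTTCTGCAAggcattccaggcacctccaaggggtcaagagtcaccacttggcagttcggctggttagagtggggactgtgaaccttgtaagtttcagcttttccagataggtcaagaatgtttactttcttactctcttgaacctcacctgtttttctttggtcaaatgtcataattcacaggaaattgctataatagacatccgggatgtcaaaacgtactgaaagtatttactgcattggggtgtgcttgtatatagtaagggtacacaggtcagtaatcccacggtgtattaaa

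Promoters were matched for 32 of the 38 members. TTGCNNAA was in 10 of the 32 (31.25%), against 12.2% of the 27025 gene promoters in the table, and GAGGAA in 20 of the 32 (62.5%), against 31.3%. Both motifs were in 7 members (21.9%, against 3.99%). All 5 primary granule promoters held GAGGAA, in Elane from base -85 to -80 before the start, and 1 of the 5 held TTGCNNAA. Of the 6 secondary granule promoters, 4 held TTGCNNAA, including Ngp with 2 (bases -138 to -131 and -11 to -4) and Mmp8 with 1 (bases -19 to -12). Retnlg held 1 TTGCNNAA, from base -246 to -239, and no GAGGAA. The motifs were chosen with the results known, and a match describes letters in a window and not a bound site.

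The libraries held 15703702 to 19914531 reads on genes in CP CML and 16145537 to 19399720 in BC CML. Mir142 had 302 to 650 reads in every CP CML library and 0 in every BC CML library, as the labels say. The T cell label was checked with 18 counted genes of T cell identity, whose CPM values (reads of a gene relative to all reads of its library, with library sizes scaled by TMM) summed to 8832 to 9392 in CP CML and 9711 to 10373 in BC CML. The 38 members together took 0.0151% to 0.0979% of the reads in CP CML and 0.109% to 0.284% in BC CML. Libraries 3 and 4 of CP CML stood apart from the other 6 of that group in granule genes, as given below, and the counts of members were also made without them.

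Of the 37 members that passed the filter on low counts, 34 were higher in BC CML by the edgeR quasi-likelihood test (adjusted p below 0.05), 0 were lower, and 3 did not pass (Csf1r, Cd68 and Cebpa). The comparison was broad: 32.6% of all 12248 genes tested were higher and 32.7% were lower. The median log2 fold change of the tested members was 2.10 (0.08 for Cebpa to 5.21 for Retnlg), beside -0.01 over all genes tested. In 18 members the groups did not overlap, with all BC CML mice the higher ones, which held for 19.3% of all genes. Without CP CML 3 and 4, 34 members were higher and 18 did not overlap, and the median was 1.75. Of the 37, 8 (Ctsg, Ms4a3, Cebpe, Mmp8, Cxcr2, Retnlg, Fpr2 and Trem1) were at the filter's minimum in only 2 to 5 CP CML libraries. They reached it with the help of BC CML libraries, so their calls are not independent of the filter. Mmp8, Cxcr2, Retnlg, Fpr2 and Trem1 are also among the 18 without overlap. All 8 are in the counts and medians above, but their values below are a description, without adjusted p. In bulk RNA, more myeloid cells in the sorted fraction and more of this RNA per cell cannot be told apart.

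**Figure D1:**
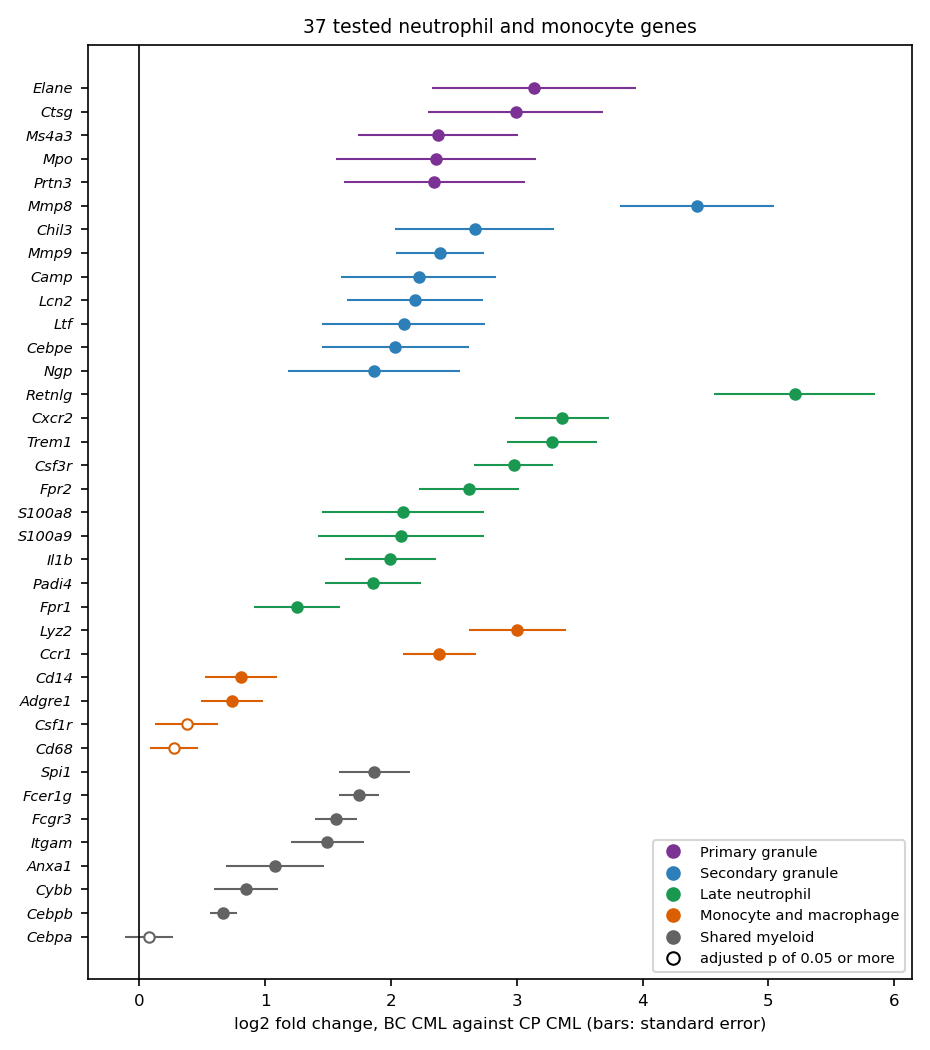
The log2 fold change of BC CML against CP CML (horizontal axis) is plotted for each of the 37 tested members (vertical axis), coloured by stage, with bars of 1 standard error and open points where the adjusted p was 0.05 or more. All points lie right of 0; Retnlg (5.21) and Mmp8 (4.43) lie farthest, and Csf1r, Cd68 and Cebpa are open.

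The 5 primary granule genes were all higher in BC CML, against 32.6% of all genes tested, with a median log2 fold change of 2.38. All 5 overlapped between the groups. Mpo, which encodes myeloperoxidase, had 0.401 CPM in the lowest, 4.12 in the median and 21.9 in the highest CP CML mouse. In BC CML mice 1 to 6 it had 15.7, 36.4, 6.30, 3.71, 40.2 and 88.2 CPM. BC CML 4 was near the CP CML median, while BC CML 6 was above all other mice. The log2 fold change of Mpo was 2.36 (SE 0.79, adjusted p = 0.0194), and without BC CML 6 it was 1.71 (adjusted p = 0.0738), so that call rests on that mouse. Without CP CML 8 it was 2.98.

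Elane had 0 to 4.65 CPM in CP CML (median 0.895) and 9.04, 14.02, 1.68, 1.41, 17.2 and 31.6 CPM in BC CML mice 1 to 6. The value of 0 was in CP CML 4, where a count of 0 allows up to 3 reads, or 0.150 CPM, for counting error alone. Its log2 fold change was 3.14 (SE 0.81, adjusted p = 0.0041). BC CML 3 and 4 were again lowest in their group, and both lay below the highest CP CML mouse.

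Prtn3, which encodes proteinase 3, lies 3140 bases before Elane on chromosome 10 and had a log2 fold change of 2.34 (SE 0.72, adjusted p = 0.0111), from 1.28 ± 1.35 CPM (SD, n = 8) to 6.37 ± 6.54 CPM (SD, n = 6). Ctsg, which encodes cathepsin G, had a log2 fold change of 2.99 (SE 0.70), from 0.582 ± 0.699 to 4.54 ± 4.31 CPM. Ms4a3, a membrane protein gene of granulocyte and monocyte progenitors, had a log2 fold change of 2.38 (SE 0.64). Ctsg and Ms4a3 reached the filter with the help of BC CML libraries, so their values are a description. In BC CML, mouse 6 was highest and mouse 4 lowest for all 5 genes. Without BC CML 6 the log2 fold change was 1.64 for Prtn3, still past the threshold, 2.40 for Ctsg and 1.72 for Ms4a3. Without CP CML 8, the highest mouse of its group, it was 2.93 for Prtn3 and 3.72 for Ctsg.

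Mpo is also a neighbour of the deleted gene, as it starts 36857 bases after the end of Mir142 on chromosome 11 (87793784 to 87804412), beyond Tspoap1, which had 125 to 309 reads in CP CML and 372135 to 464887 in BC CML. Mpo had 8 to 349 reads in CP CML and 71 or more in BC CML, with the fold change given above. For every 100 reads of Mpo, Elane on chromosome 10 had 0 to 30.3 reads in CP CML and 26.7 to 57.6 in BC CML.

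The 8 secondary granule genes were all higher, against 32.6% of all genes tested, with a median log2 fold change of 2.21. Of the 8, 4 (Ltf, Lcn2, Mmp8 and Mmp9) did not overlap between groups, against 19.3% of all genes. Ngp, the most abundant, had 1.60 CPM in the lowest, 66.8 in the median and 159 in the highest CP CML mouse, and 139, 216 and 469 CPM in BC CML. The log2 fold change was 1.86 (SE 0.68, adjusted p = 0.0295). The call was lost without BC CML 6 (1.58, adjusted p = 0.0712) and without CP CML 1 (1.80, adjusted p = 0.0516).

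Ltf, which encodes the iron-binding protein lactoferrin, had 1.48 to 94.5 CPM in CP CML (median 41.4) and 101.3 to 304 in BC CML (median 156), with a log2 fold change of 2.10 (SE 0.64, adjusted p = 0.0119). Chil3, a chitinase-like protein gene of granulocyte precursors and macrophages, had 1.00 to 64.2 CPM in CP CML (median 13.2) and 51.4 to 169 in BC CML (median 119), for a log2 fold change of 2.67 (SE 0.63, adjusted p = 0.0024) that was 3.30 without CP CML 8. Lcn2, which encodes the siderophore-binding protein lipocalin 2, had 0.601 to 32.0 CPM in CP CML (median 14.6) and 42.9 to 100.8 in BC CML (median 64.0), a log2 fold change of 2.19 (SE 0.54, adjusted p = 0.0031). For Ltf and Lcn2 the lowest BC CML mouse was above the highest CP CML mouse, and for Chil3 only CP CML 8 reached into the BC CML range.

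Camp, the gene of the antimicrobial peptide cathelicidin, was higher by 2.22 on the log2 scale (adjusted p = 0.0066). Cebpe, the transcription factor gene of secondary granules, was higher by 2.03. It had 0.598 ± 0.546 CPM (SD, n = 8) in CP CML and 2.39 ± 1.51 CPM (SD, n = 6) in BC CML. Cebpe and Mmp8 reached the filter with the help of BC CML libraries, so their values are a description. Mmp9, gelatinase B, had 2.94 to 5.51 CPM in CP CML and 6.82, 10.3, 25.4, 44.4, 25.9 and 16.1 CPM in BC CML mice 1 to 6 (log2 fold change 2.39, SE 0.35, adjusted p = 3.51e-05). Mmp8 had 0.100 to 1.89 CPM in CP CML and 4.21, 5.80, 24.3, 40.3, 21.4 and 8.90 CPM in BC CML (4.43, SE 0.61). For both, BC CML 4 was highest and BC CML 1 lowest, an order unlike that of the primary granule genes.

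**Figure D2:**
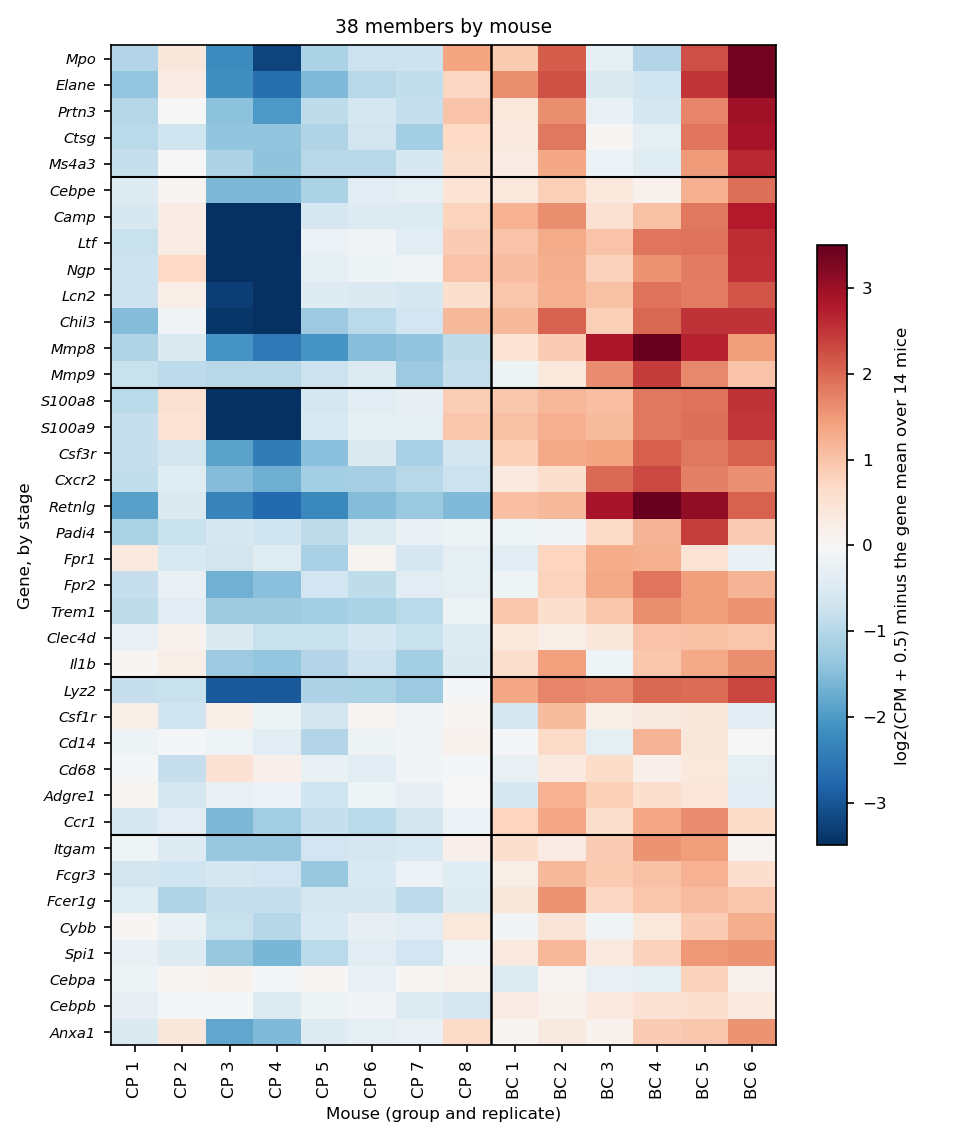
Each of the 38 members (rows, by stage) is coloured in each of the 14 mice (columns, CP CML left and BC CML right) by log2(CPM + 0.5) minus the gene's mean over the mice. CP CML 3 and 4 are lowest for granule genes such as Ngp and S100a9 but not for Csf1r or Cd68, BC CML 6 is highest for all 5 primary granule genes, and BC CML 4 for Mmp8, Mmp9, Cxcr2 and Retnlg.

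Of the 11 late neutrophil genes, 10 were tested and all 10 were higher, against 32.6% of all genes tested. Their median log2 fold change was 2.36. Among them 8 did not overlap (all but Fpr1 and Il1b), against 19.3% of all genes. Of these 8, Cxcr2, Retnlg, Fpr2 and Trem1 reached the filter with the help of BC CML libraries. S100a9 and S100a8 encode the 2 chains of calprotectin and had the highest levels per kilobase of all 38 members in both groups: S100a9 had 129.6 CPM per kilobase in CP CML and 545 in BC CML, and S100a8 125.2 and 531. S100a9 had 2.00, 63.8 and 166 CPM in the lowest, median and highest CP CML mouse, and 177, 261 and 486 CPM in BC CML (log2 fold change 2.08, SE 0.66, adjusted p = 0.0143). S100a8 had 2.05, 45.0 and 117 CPM in CP CML and 122, 188 and 370 CPM in BC CML (2.10, SE 0.64, adjusted p = 0.0121). Neither overlapped, and there were 67.2 to 102.5 reads of S100a8 for every 100 of S100a9 in CP CML and 69.0 to 76.2 in BC CML.

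Retnlg had the largest fold change of the tested members. It reached the filter with the help of BC CML libraries, as did Cxcr2, so both are given as a description. Retnlg had 0 to 1.83 CPM in CP CML and 6.43, 6.79, 24.2, 48.0, 28.2 and 13.3 CPM in BC CML mice 1 to 6 (log2 fold change 5.21, SE 0.64). The value of 0 was in CP CML 4, and the groups did not overlap. Csf3r, the receptor for G-CSF, had 0.601 to 3.67 CPM in CP CML and 10.1, 14.6, 15.1, 25.1, 20.8 and 24.3 CPM in BC CML (2.98, SE 0.31, adjusted p = 9.79e-07), again without overlap. Cxcr2, the chemokine receptor of mature neutrophils, had 0.2005 to 1.22 CPM in CP CML and 2.44, 2.99, 8.61, 10.9, 7.37 and 6.53 CPM in BC CML (3.36, SE 0.37).

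Trem1, an activating receptor, was higher by 3.28 on the log2 scale. It had 0.100 to 0.755 CPM in CP CML and 1.62 to 3.87 CPM in BC CML. Fpr2 and Fpr1, receptors for formylated peptides of bacteria, were higher by 2.62 and 1.25 (adjusted p = 0.0040 for Fpr1). Trem1 and Fpr2 reached the filter with the help of BC CML libraries, so their values are a description. The listed range of Fpr2 spans other genes of its family, so its reads are less certain. Il1b, the gene of interleukin 1 beta, had 0.651 to 2.99 CPM in CP CML and 2.15 to 8.59 CPM in BC CML (1.99, adjusted p = 0.0002), and only BC CML 3 lay within the CP CML range.

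Padi4, an enzyme that turns arginine of histones to citrulline, had 1.75 to 3.77 CPM in CP CML and 3.88 to 25.5 CPM in BC CML (1.86, adjusted p = 0.0006). Its highest value was in BC CML 5, against 10.5 CPM in the next mouse, and without BC CML 5 the log2 fold change was 1.31. Clec4d, a lectin receptor, was not tested. It had 0 to 7 reads in CP CML (0 to 0.427 CPM) and 8 to 23 reads in BC CML (0.499 to 1.25 CPM), so that here too the groups did not overlap.

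The summed CPM of the 5 primary granule genes was 30.7, 66.9, 11.8, 7.84, 75.0 and 160.7 in BC CML mice 1 to 6, and that of the 11 late neutrophil genes was 331, 394, 388, 663, 674 and 927. BC CML 6 and then BC CML 5 were highest in both sums. BC CML 4, the lowest in the primary sum, was the third highest in the late sum. Mmp8, Mmp9, Retnlg and Cxcr2, picked after their values were seen as genes with their highest level in BC CML 4, summed to 19.9, 25.9, 82.5, 143.6, 82.9 and 44.8 CPM. That order was set by the choice of the genes and is given as a description only. In CP CML these 4 genes summed to 4.06 to 8.85 CPM, the primary genes to 0.802 to 35.3 CPM and the late genes to 9.47 to 297 CPM.

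**Figure D3:**
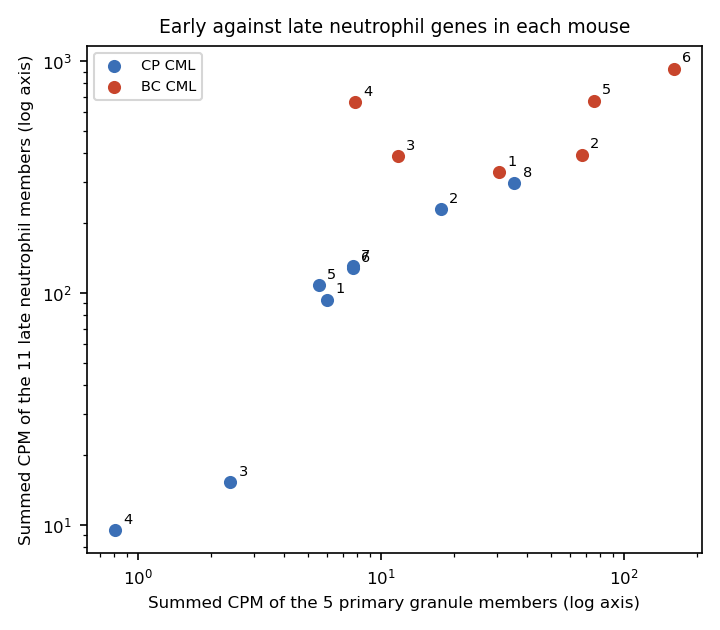
Each point is 1 mouse (number: replicate), placed by the summed CPM of the 5 primary granule genes (horizontal, log axis) and of the 11 late neutrophil genes (vertical, log axis). All 6 BC CML mice lie at 331 or more on the vertical axis and all 8 CP CML mice at 297 or less, whereas 3 BC CML mice lie within the CP CML range on the horizontal axis.

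BC CML 4 was lowest for 5 of 5 primary genes and highest for 5 of 11 late genes. BC CML 6 was highest for 5 of 5 primary, 5 of 8 secondary and 3 of 11 late genes, and BC CML 1 was lowest for 8 of 11 late genes and for 19 of all 38 members. For every 100 CPM of secondary genes there were 7.19, 12.0, 2.87, 1.05, 9.10 and 13.6 CPM of primary genes in BC CML mice 1 to 6, and 3.68 to 16.8 in CP CML. A list of B cell genes, summed in the same mice, had 210, 410, 124, 195, 353 and 676 CPM in BC CML and 71.1 to 222 CPM in CP CML. Its part in these differences was not tested.

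In CP CML the spread lay mainly in granule and calprotectin genes. The secondary genes summed to 14.3 CPM in CP CML 3 and 8.82 in CP CML 4, but to 116, 266, 150, 164, 160 and 384 CPM in mice 1, 2, 5, 6, 7 and 8. CP CML 8 was highest for 23 of the 38 members, including all 5 primary genes, and CP CML 4 lowest for 22. Mmp9 did not share that spread, with at most a 1.87-fold range over the 8 mice, against 99.2-fold for Ngp. Csf1r and Cd68 were highest in CP CML 3 (57.0 and 22.7 CPM).

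The 6 monocyte and macrophage genes split. Lyz2 and Ccr1 were higher without overlap, Cd14 and Adgre1 were higher with overlap, and Csf1r and Cd68 did not pass the test. Lyz2, the lysozyme gene of myeloid cells including neutrophils, had 6.87, 26.0 and 54.0 CPM in the lowest, median and highest CP CML mouse. In BC CML mice 1 to 6 it had 143, 185, 177, 226, 219 and 287 CPM (log2 fold change 3.01, SE 0.39, adjusted p = 1.65e-05).

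Csf1r, the receptor for the growth factor of macrophages, had 29.7 to 57.0 CPM in CP CML (median 47.3) and 32.0, 104, 56.7, 60.6, 63.4 and 37.3 CPM in BC CML (0.38, SE 0.25, adjusted p = 0.20). BC CML 2 was highest, and BC CML 1, 3 and 6 lay within the CP CML range. Cd68, a lysosomal protein gene of macrophages, had 8.92 to 22.7 CPM in CP CML and 12.4 to 25.3 CPM in BC CML (0.28, SE 0.19, adjusted p = 0.22). Without CP CML 3 and 4 it passed the test, at 0.46 (adjusted p = 0.035). Adgre1, which encodes F4/80, had 8.09 to 14.3 CPM in CP CML and 8.82 to 31.6 CPM in BC CML (0.74, SE 0.25, adjusted p = 0.0178). That call was lost without BC CML 2 (0.53, adjusted p = 0.0511).

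Ccr1, which holds the miR-142a-5p match printed above, had 0.255 to 1.45 CPM in CP CML and 2.94 to 6.45 in BC CML (2.39, SE 0.29, adjusted p = 1.25e-06). Cd14, the co-receptor for bacterial lipopolysaccharide, had 0.446 to 1.64 CPM in CP CML and 1.05 to 3.87 CPM in BC CML (0.81, adjusted p = 0.0198). Its call was lost without BC CML 4 (0.52, adjusted p = 0.0941) and without CP CML 3 and 4 (0.78, adjusted p = 0.0523). With Lyz2 the 6 genes summed to 99.5 ± 20.1 CPM (SD, n = 8) in CP CML and 309 ± 57.2 CPM (SD, n = 6) in BC CML, a ratio of 3.10. Without Lyz2 the sums were 73.6 ± 15.2 and 102 ± 38.1 CPM, a ratio of 1.39.

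Of the 8 shared genes, 7 were higher, against 32.6% of all genes tested, and Cebpa did not pass the test. The median log2 fold change was 1.29. Fcer1g, the signalling chain of Fc receptors, had 6.17 to 9.88 CPM in CP CML and 17.7 to 40.6 CPM in BC CML (1.75, SE 0.16, adjusted p = 6.32e-08). Fcgr3, an Fc receptor for IgG, had 3.69 to 8.46 and 11.4 to 23.8 CPM (1.56, adjusted p = 4.16e-07). Spi1, which encodes PU.1, had 1.10 to 3.96 and 5.71 to 13.9 CPM (1.87, adjusted p = 2.63e-05). None of these 3 genes overlapped between groups. NK cells also use Fcer1g and Fcgr3, and their markers are given below.

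Cybb, the catalytic chain of the phagocyte oxidase, had 17.1 to 44.7 CPM in CP CML and 31.8 to 83.2 in BC CML (0.85, SE 0.25, adjusted p = 0.0096). Itgam, the integrin chain CD11b, had 5.86 to 17.8 and 16.6 to 47.2 CPM (1.496, SE 0.29, adjusted p = 0.0005). Anxa1, an annexin that activated T cells can also express, had 3.62 to 22.8 and 14.8 to 43.5 CPM (1.08, SE 0.39, adjusted p = 0.026), and its call was lost without BC CML 6 (0.83, adjusted p = 0.0775).

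The C/EBP genes moved least of the shared group. Cebpb had 4.91 to 7.45 CPM in CP CML and 8.48 to 11.5 CPM in BC CML (0.67, SE 0.11, adjusted p = 3.07e-05), without overlap. Cebpa, which acts at the start of the granulocyte lineage, had 2.97 to 4.15 CPM in CP CML and 2.50 to 6.82 CPM in BC CML (0.08, SE 0.19, adjusted p = 0.74). Its highest value was in BC CML 5, and without that mouse the value was -0.17 (adjusted p = 0.33).

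**Figure D4:**
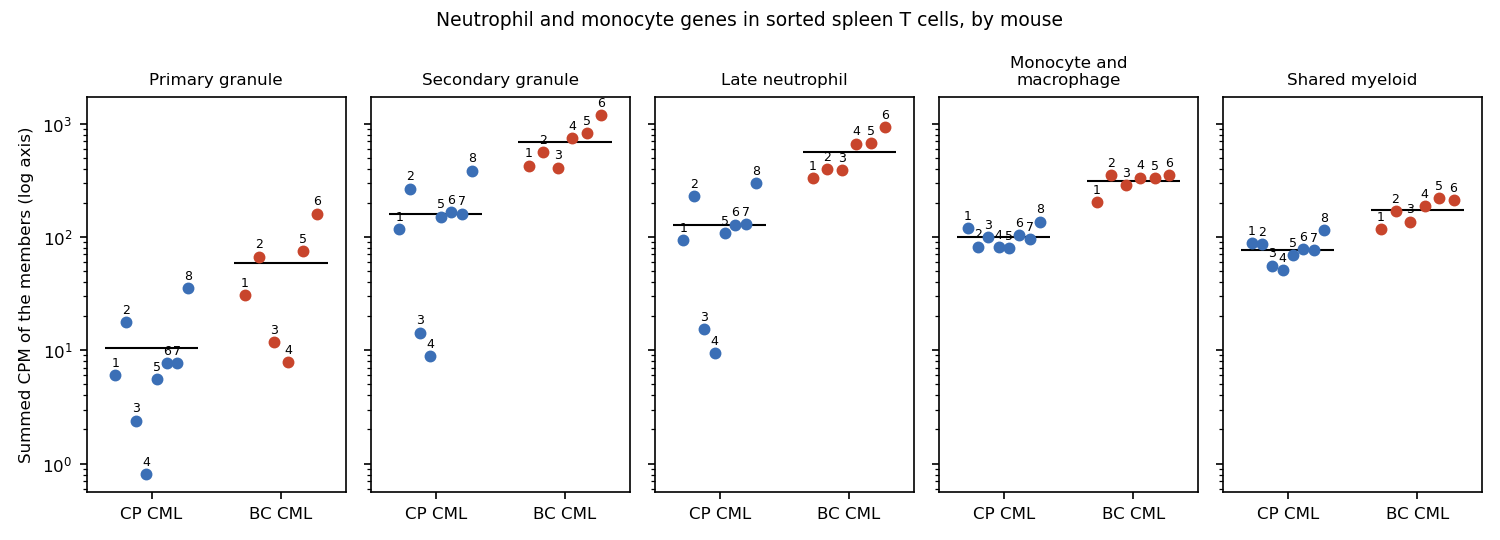
The summed CPM of the members of each stage (vertical, log axis) is plotted for each mouse (number: replicate) in CP CML and BC CML, with a line at the group mean. The groups separate in 4 of the 5 panels; in the primary granule panel 3 BC CML mice lie within the CP CML range, and CP CML 3 and 4 lie below the other CP CML mice in the 3 neutrophil panels.

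By stage, the sums of the primary genes were 10.4 ± 11.3 CPM (SD, n = 8) in CP CML and 58.8 ± 57.1 CPM (SD, n = 6) in BC CML, a ratio of 5.66, and 3 of 6 BC CML mice were above all CP CML mice. On the log2 scale that ratio was 2.50, and it was 1.89 without BC CML 6 and 3.11 without CP CML 8. The ratio was 4.37 for secondary genes (158 ± 124 to 691 ± 293 CPM), 4.46 for late genes (126 ± 97.8 to 563 ± 231 CPM) and 2.25 for shared genes (77.3 ± 20.3 to 174 ± 40.9 CPM), each with 6 of 6 BC CML mice above all CP CML mice. Without CP CML 3 and 4 the log2 ratio of the sums was 2.14 for primary (2.50 with them), 1.74 for secondary (2.13), 1.78 for late (2.16), 1.59 for monocyte and macrophage (1.63) and 1.03 for shared genes (1.17). The number of genes called in each stage was the same without those libraries, with Cd68 in place of Cd14 among the monocyte and macrophage genes. These sums were not tested, since the members were chosen.

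Other genes of the same stages, 96 in 5 further lists, were counted in the same fit: 84 were tested, 72 were higher and 3 lower, with a median of 1.22. Over all genes tested, 32.6% were higher and 32.7% lower. Of 9 other primary genes tested, 8 were higher and 0 lower, among them Gfi1, a repressor needed for neutrophils and also used by T cells, at 23.7 to 29.4 CPM in CP CML and 44.0 to 56.0 in BC CML. Of 12 other secondary genes, 12 were higher. Ly6g, the surface marker by which mouse neutrophils are usually gated, was named after its values were seen, and had 0 to 0.648 CPM in CP CML and 0.810 to 3.19 CPM in BC CML. It passed the filter through BC CML, as did some other genes of these lists, so its values are given as a description.

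Of 10 other late genes tested, 5 were higher and 2 lower, beside 32.6% and 32.7% of all genes tested. G0s2, a regulator of fat breakdown, was higher by 2.57 (adjusted p = 1.07e-10), while Cxcl2, a ligand of Cxcr2, had 0.0546 to 0.378 CPM in CP CML and 1.16 to 3.24 CPM in BC CML and passed the filter through BC CML alone. Cxcr1, the other receptor of this kind, had 3.501 to 7.27 CPM in CP CML and 0.436 to 1.39 CPM in BC CML, the reverse order of Cxcr2. Not every BC CML library reached the filter's minimum for Cxcr1, nor every CP CML library for Cxcr2, so the pair is given as a description. Of 28 other monocyte and macrophage genes 23 were higher and 1 lower. Ly6c2, which marks inflammatory monocytes and also memory T cells, had 74.8 to 98.0 CPM in CP CML and 342 to 474 CPM in BC CML (2.22, SE 0.07, adjusted p = 1.68e-13). Clec7a, a receptor for fungal glucans, was higher by 2.75 (adjusted p = 9.21e-11). The gene that was lower, Cd300e, a receptor of monocytes, had 0.672 to 1.64 CPM in CP CML and 0.157 to 0.650 CPM in BC CML. It passed the filter through CP CML, so these values are a description. Ccr2, a chemokine receptor of inflammatory monocytes and of some T cells, did not pass the test (-0.36, adjusted p = 0.12). Both were named after their values were seen. Of 25 other shared genes, 24 were higher and 0 lower, including Lilrb4a, an inhibitory receptor of myeloid and some lymphoid cells (2.19, adjusted p = 5.27e-11).

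Markers of other cells that a spleen sort can hold were counted too, beside 32.6% of all genes tested higher and 32.7% lower. Their part in the members' differences was not tested. These counts include genes that passed the filter only through BC CML, such as Hoxa9 and Meis1 among the stem and progenitor genes, and are descriptions. B cell genes were higher in 10 of 13 tested and lower in 0, and the lowest sum in BC CML (124 CPM) was below the highest in CP CML (222 CPM). NK cell genes were higher in 8 of 9 and lower in 1, and summed to 202 to 247 CPM in CP CML and 518 to 767 CPM in BC CML. Stem and progenitor genes were higher in 6 of 9, with Kit, a growth factor receptor of progenitors and mast cells, at 2.96 to 5.16 and 16.5 to 34.0 CPM (2.75, adjusted p = 1.82e-09). Dendritic cell genes were higher in 5 of 8 and erythroid genes in 6 of 10, with none lower in either list. Basophil and mast cell genes were higher in 2 of 8 and lower in 2, 1 of 1 tested eosinophil genes was higher, and of 2 tested megakaryocyte and platelet genes 0 were higher and 1 was lower. Of the 18 T cell identity genes 9 were higher and 3 lower, with a median of 0.13. At 0 in all 14 libraries were 1 eosinophil and 1 NK cell gene, and no gene of the other marker lists.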

How the data were processed

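RNA-seq counts from spleen T cells of 8 CP CML and 6 BC CML mice were used. The authors trimmed reads with Trimmomatic and FASTP, aligned them to mm10 with STAR 2.6.0, counted them with HTSeq 0.11.1, and deposited raw counts of 24091 genes. The annotation and strand setting of the counting are not given in the sources used here, so reads of overlapping genes (Mpo, Il1b, Itgam, Cebpa, Cebpb, Anxa1, Csf1r, Trem1 and Fpr2 among the members) or of close copies (Chil3, Lyz2, Fcgr3) may be misassigned. Members and lists were chosen with earlier results of these data known.

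Counts were filtered by filterByExpr (12248 genes), TMM-normalized and tested with edgeR 4.0.16 (R 4.3.3, quasi-likelihood test with robust estimation, no covariate, Benjamini-Hochberg over all genes tested at 0.05); the study's methods name the likelihood ratio test, an alternative here. The standard error came from the fold change and the F statistic. The script was tested on simulated data. Each replicate is 1 mouse. As alternatives, the fit was repeated with DESeq2 1.42.0, with the likelihood ratio test, with other scaling (RLE, or library size alone), with no filter or one of more than 1 CPM in 6 samples or more, with replicate number as block, with each library left out, and, added after seeing the data, CP CML 3 and 4 left out together. Replicate pairs differed by a chi-square per degree of freedom of 3.03 to 22.8, where sampling noise gives about 1, so all libraries were counted separately. In each stage the 4 members with the highest mean CPM, and any called lower, have full statistics. Members that needed BC CML libraries to reach the filter are given without adjusted p. From other lists up to 3 genes with the lowest p and up to 2 with the highest CPM could be named. Missing from the counts under the listed symbols were 2 T cell, 2 B cell and 3 erythroid markers. 3′UTRs came from GENCODE M21 and promoters from RefSeq, both of the same build. A count of 0 allows up to 3 reads, or 0.150 to 0.191 CPM by library.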

Additional observations from a re-analysis of the deposited data

Results flagged for a closer look

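In 7 of 86 groups of values (each member in CP CML and in BC CML, and stage sums), 1 mouse lay farther from the rest than Dixon's 95% critical value allows. Chance would give about 4.3 if the groups were independent and their values normally distributed. The CPM values were not transformed and members of a stage varied together, so the 7 cannot be judged against 4.3. In CP CML, mouse 8 was high for Prtn3 (4.34 CPM, next 1.95), Ctsg (2.26, next 0.594) and Chil3 (64.2, next 26.3), and mouse 2 for Retnlg (1.83, next 0.858). In BC CML, mouse 6 was high for Prtn3 (18.5, next 7.47), and mouse 5 for Padi4 (25.5, next 10.5) and Cebpa (6.82, next 4.11).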

How the results depend on the processing

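The number of members called higher was 34 with the likelihood ratio test, DESeq2, RLE factors, library size alone, more than 1 CPM in 6 samples and without CP CML 3 and 4 together, 35 with no filter on low counts, and 31 to 34 with each library left out; 31 was without BC CML 6, where Mpo, Ngp and Anxa1 lost their calls. No member was called lower in any of these fits. Members without overlap numbered 17 with library size alone, 19 with no filter, and 18 to 24 with each library left out (24 without CP CML 8). All genes called numbered 7986, 7280 to 8719 under the other settings and 7721 to 7966 with each library left out. Equal replicate numbers are not a pairing of mice (the correlations of deviations from the group means went from -0.27 to 0.36 over 6 pairs, mean -0.02). With the replicate block 32 members were higher, and Fpr1 (adjusted p = 0.0637) and Adgre1 (adjusted p = 0.108) were no longer called. Over all settings the log2 fold change reached 2.81 for Ngp, 2.87 for Ltf, 2.99 for S100a9 and 2.95 for S100a8. These values lie above the highest with each library left out (2.17, 2.42, 2.42 and 2.42). The log2 ratio of the summed CPM of monocyte and macrophage genes was 1.63, and the median of the log2 ratios of group mean CPM over these 6 genes was 0.78. Cebpa turned from 0.08 to -0.17 without BC CML 5, the lowest of -0.17 to 0.17 with each library left out. With each library left out the log2 ratio of the sums was 1.89 to 3.11 for primary, 1.91 to 2.46 for secondary, 1.96 to 2.46 for late, 1.59 to 1.73 for monocyte and macrophage and 1.09 to 1.27 for shared genes. Of the log2 fold changes of single members, 292 values under other settings stayed on the same side of the threshold, 3 lost and 1 gained the call; with each library left out 511 stayed, 6 lost the call and 1 changed sign. At this depth, genes with a few reads a library, such as Clec4d, are the least precise.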
